A study of Oncorhynchus mykiss with 23 samples.

Results

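Late risers are array probes whose signal in rainbow trout fast muscle stood at least 1 log2 unit (2-fold) higher after 36 days of refeeding than in fasted trout and than in trout refed for 4 or 11 days. The probes were chosen on those very values, from signals of the scanner software taken as log2 and expressed against each array's own 75th percentile. A probe also had to be well above background on all 4 arrays of the day 36 group. Of 60195 non-control probes, 24967 met the brightness condition and 391 also met the margin. Leaving out 6 probes named as collagens (COL1A1, COL1A2, COL6A3, COL12A1 and 2 probes of COL5A1) left 385 late risers. Probes named as sarcomere proteins, periostin, laminin beta-1, keratocan or mimecan were also to be left out, but none of those met the margin.

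Trout that are starved break down muscle protein, and refeeding restarts growth, in which fibres thicken and the matrix around them is rebuilt. Growth that runs faster than in continually fed animals is called compensatory growth. Fast muscle is the pale bulk of the fish trunk, and in trout it can add new fibres as well as enlarge existing ones.

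The study used a spring strain of rainbow trout, 1 year old, in 2 tanks. The 23 arrays held muscle of single fish. Fasting lasted 30 days, and 5 fish were sampled at its end (F0). This length is that of the labels and the study's methods, while its results text gives another for the refed trout. The same fast was followed by refeeding in RF4 (4 days, 5 fish), RF11 (11 days, 5 fish) and RF36 (36 days, 4 fish), and 4 fish were fed throughout (C0). Refed trout came from the fasted tank and received 3 times the normal ration, while C0 trout were fed to satiation in the other tank and were sampled on day 30 of the experiment. Every comparison with C0 is therefore also one of tanks and, for RF36, of sampling days, which cannot be told apart from feeding. RF4, RF11 and RF36 fish were sampled later than F0 fish, so refeeding cannot be told apart from age and sampling day. Control fish taken at the end of the experiment were not put on arrays. All levels below are log2 signals on that scale, so a difference of 1 is 2-fold.

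Most late risers carry no gene name in the files. A name was found for 19 of the 385, which stand for 17 genes. Names came from the study's list of genes that changed with feeding, read here in part, and for 1 gene from the scanner files. The named genes are therefore mostly those already picked for differing between these fish and do not represent the others. Unnamed probes of collagen or sarcomere genes may remain among the 385. The members share probes of the same transcripts, so they are not 385 independent genes.

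The arrays differed in brightness. The log2 75th percentile lay between 8.05 and 8.84 on F0, 8.12 and 9.04 on RF4, 7.73 and 9.08 on RF11, 7.29 and 8.14 on RF36 and 6.96 and 8.77 on C0 arrays, and the share of spots well above background was lowest on an RF36 array (45.2%) and highest on C0-1 (67.2%). Brightness was added to the model as a covariate, a choice made after the signals had been seen. The median margin over the 385 probes was then 1.26, and 376 of them kept a margin above 0. The rule applied with the covariate gave 398 late risers, of which 260 were among the 385. The 385 had been selected on a high margin, so the margins they kept only describe the choice. The part of brightness in the results was not tested. Among the named fast fibre markers, TNNC2 (fast troponin C) averaged 7.15 in F0, 7.82 in RF4, 9.07 in RF11, 9.37 in RF36 and 9.24 in C0, and CKM (muscle creatine kinase) averaged 7.60, 7.10, 7.01, 6.28 and 6.06 in the same order. Of markers of other cell types, KDR (endothelium) was lower in RF36 than in C0 (RF36 minus C0 of -1.27, adjusted p = 0.012), and DCN (fibroblasts) and MYF5 (satellite cells) differed by 0.23 (adjusted p = 0.601) and -0.54 (adjusted p = 0.103). Their part in the results was not tested. No tested probe bore the symbol of any of the other 7 fast fibre markers. The same held for the markers of slow fibres, erythrocytes, adipocytes, leukocytes, nerve, cartilage and skin. Probes named fast myosin, fast myosin light chain 1 and fast myosin light chain 3 were present, but were not matched to the marker list. In whole tissue, fewer cells of a type and less RNA per cell cannot be told apart.

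The average signal over all 385 late risers showed the shape that the rule fixed, and where the control-fed trout stood. The rule did not use C0, but it took RF36 high and F0, RF4 and RF11 low. A group left out of the choice would therefore tend to fall between them, and the place of C0 is given as a description. Over fish it lay between 0.92 and 1.18 in F0, 1.02 and 1.503 in RF4, 1.42 and 1.79 in RF11, 2.88 and 3.25 in RF36 and 1.87 and 2.59 in C0. The C0 fish lay between the RF11 and the RF36 fish with no overlap on either side, whereas F0 overlapped RF4 and RF4 overlapped RF11. The RF36 mean was 3.06 ± 0.15 and the C0 mean 2.16 ± 0.32 (SD, n = 4 each), a difference of 0.90, or 0.80 without C0-1, which had the lowest C0 value. Within the 3 slides the difference was 0.81 (1 RF36 and 1 C0 fish), 1.12 (2 RF36 and 1 C0) and 0.97 (1 RF36 and 2 C0).

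**Figure D1:**
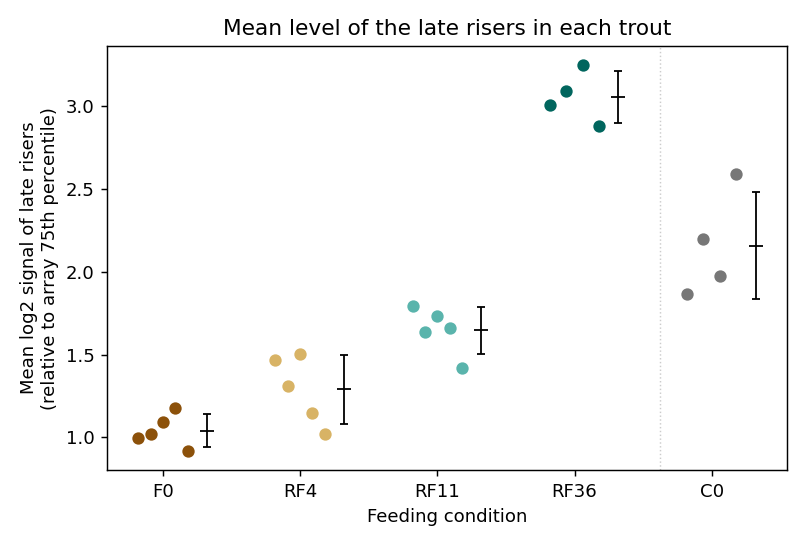
Mean log2 signal of the 385 late risers (y axis, relative to the array 75th percentile) in each trout, by feeding condition. Points are single fish, and the bar beside them is the mean with its SD. The RF36 fish lie between 2.88 and 3.25 because the rule selected on them, and the C0 fish lie between 1.87 and 2.59.

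Probe by probe, the margin of RF36 over the highest of the F0, RF4 and RF11 means had a median of 1.26 and reached 3.26. It was at least 1.5 for 101 probes and at least 2 for 22. Just inside the threshold stood probes with margins of 1.00021, 1.00041 and 1.00108, and just outside stood 0.998, 0.996 and 0.996. All RF36 arrays were above all F0, RF4 and RF11 arrays for 256 late risers. The rule selected on these same groups, so this count only describes the choice, and it was not made over all probes. The mean was lowest in F0 for 241 probes, in RF4 for 114, in RF11 for 23 and in C0 for 7.

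The median late riser had covered 7.07% of its F0 to RF36 difference at RF4 and 26.5% at RF11, and 209 of the 385 had means in the order F0, RF4, RF11. The rule holds these shares down, since RF36 had to stand at least 1 above RF4 and RF11, so they are given as a description with no test. C0 stood at a median of 52.1% of the same span, likewise a description, since the choice of RF36 and F0 bears on it. In 332 late risers the C0 mean was above the F0, RF4 and RF11 means. The rule took those means low and the count was not made over all probes, so nothing is read from it.

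The largest margin, 3.26, belonged to an unnamed probe, TC94745. Its signal was -1.70, -0.70, 0.04 and -1.31 on the RF36 arrays, and it was not well above background on any F0, RF4 or RF11 array and on only 1 of the C0 arrays, whose signals were -4.42, -2.86, -3.52 and -1.16. RF36 was thus at least 3.48-fold higher than F0, at least 3.46-fold higher than RF4 and at least 3.74-fold higher than RF11. Such a bound sets the RF36 mean against the lowest signal that counted as well above background on each dim array, or the probe's own signal where that was higher. It applies to the processed signal only. The next margin, 2.73, was that of TC100365, also unnamed, which was well above background on all arrays. It averaged 1.25 ± 1.16 in F0, 1.25 ± 0.94 in RF4, 2.45 ± 1.21 in RF11 (SD, n = 5 each), 5.19 ± 0.83 in RF36 and 3.92 ± 1.89 in C0 (SD, n = 4 each). Among its C0 arrays, C0-1 stood at 1.27 and the others between 3.90 and 5.42.

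Whether the late risers ended above the level of control-fed trout is a comparison in which C0 had no part in the choice, although RF36 did and so leans high. The RF36 mean was above the C0 mean for 366 of the 385 (95.1%), beside 52.1% of all probes tested, and below it for 19. The median difference was 0.88 over the late risers and 0.03 over all 34200 probes tested. At an adjusted p under 0.05 (limma, Benjamini-Hochberg over all probes tested), 149 late risers (38.7%) were higher in RF36 than in C0, beside 9.24% of all probes tested, and 0 were lower, beside 3.22%. At an unadjusted p under 0.05, 224 were higher and 0 lower, but the share of all probes at that level was not counted. All RF36 arrays lay above all C0 arrays for 112 late risers, beside 10.8% of all probes tested. The count of 149 was 93 without C0-1, 95 without RF36-3 and 26 when RF36 and C0 were fitted alone.

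**Figure D2:**
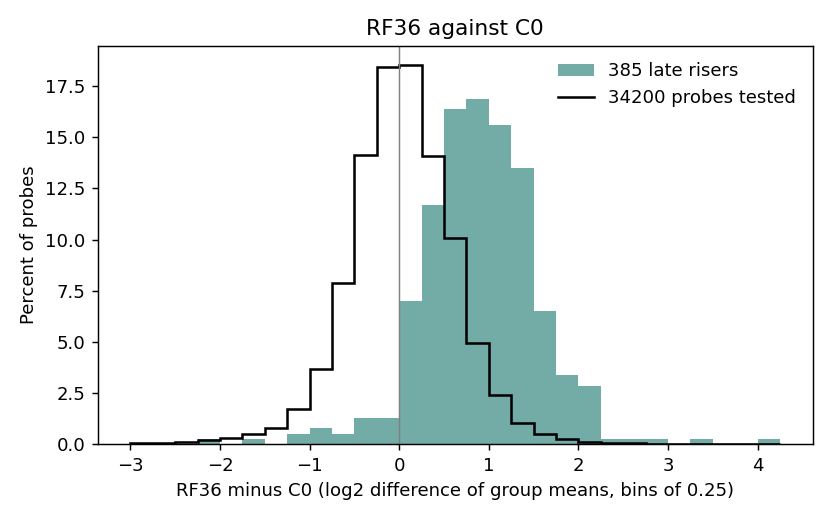
Share of probes (y axis, percent) by the log2 difference between the RF36 and C0 means (x axis, bins of 0.25), for the 385 late risers (filled) and for the 34200 probes tested (line). The late risers have a median of 0.88 and the tested probes a median of 0.03.

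All 385 late risers passed the filter for testing, as they had to, since the filter asks for 4 bright arrays in any group and the rule asks for 4 in RF36. Of them, 298 were well above background on all 23 arrays.

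Fasted trout were at the other end. F0 was lower than C0 for 203 late risers (52.7%), beside 8.92% of all probes tested, and higher for 0, beside 11.4%. There was 1 higher at an unadjusted p under 0.05, where the share of all probes was not counted. F0 took part in the choice and leans low. The median difference was -1.03. Scaling by the median of the array lowered the 203 to 112. It also moved the median RF36 minus C0 to 1.12 over the late risers and 0.27 over all probes tested, and the rule then gave 307 late risers. This comparison and that of RF36 with C0 share the C0 fish.

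The rule used the F0, RF4 and RF11 means alike, each at least 1 below RF36. It set no direction among them, but it left out probes that had already risen most of the way, and the calls below are conditioned on that. At RF4, 29 late risers (7.53%) were higher than in F0, beside 13.6% of all probes tested, and 1 was lower, beside 9.68%. Nothing is read from these shares, since a probe with a full early rise cannot meet the margin. At RF11, 97 (25.2%) were higher than in F0, beside 15.0% of all probes tested, and 0 were lower, beside 12.0%. There were 2 lower at an unadjusted p under 0.05, where the share of all probes was not counted. The median RF11 minus F0 was 0.48 over the late risers and -0.07 over all probes tested. Between RF11 and RF4, 8 late risers were higher in RF11, beside 1.19% of all probes tested, and 0 were lower, beside 0.746%. At an unadjusted p under 0.05, 83 were higher in RF11 and 0 lower. The share of all probes at that level was not counted, so nothing is read from these numbers. The 8 included HMGB3 and CNP-1-2 among named genes, and their number ranged between 2 and 18 as single arrays were left out.

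RF11 against F0 and RF36 against C0 have no fish in common. Late risers called higher in both numbered 51, which is 34.2% of those called in RF36 against C0, 52.6% of those called in RF11 against F0 and 13.2% of all 385. Of all probes tested, 5.27% were called higher in both. That is 57.0% of all probes called in RF36 against C0 and 35.0% of those called in RF11 against F0. The late risers stood below all probes in the first share and above them in the second. The rule bears on both shares, since it took RF36 high and held RF11 down, so nothing is read from them. Those called only in RF36 against C0 numbered 98, those called only in RF11 against F0 numbered 46, and 190 were called in neither. Missing the threshold in one of them does not show that those probes stayed level there.

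**Figure D3:**
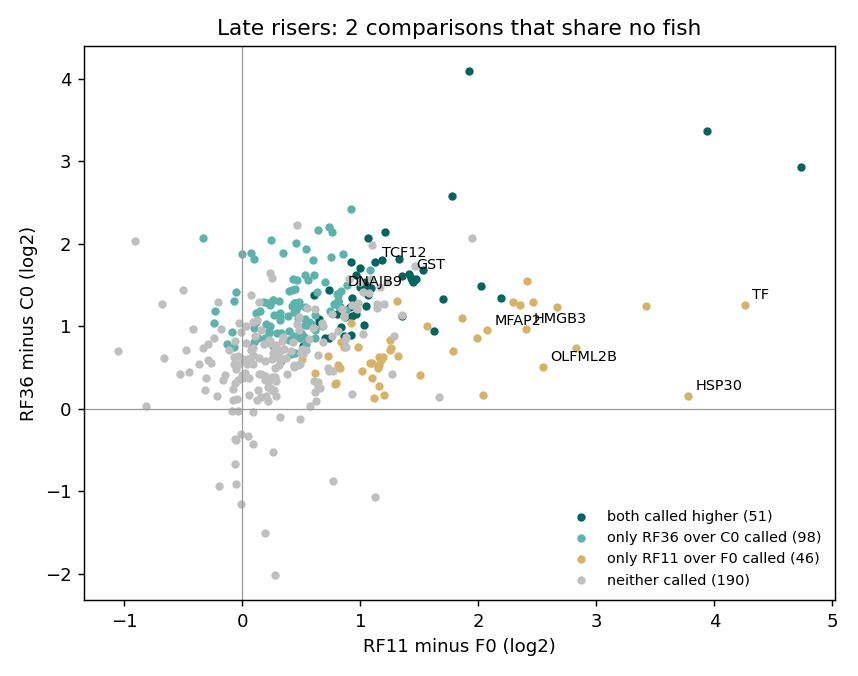
Each point is a late riser, with its RF11 minus F0 log2 difference on the x axis and its RF36 minus C0 log2 difference on the y axis. Colours give the calls (51 in both, 98 only RF36 over C0, 46 only RF11 over F0, 190 neither), and HSP30 and TF lie far to the right with RF36 minus C0 of 0.16 and 1.26.

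The 17 named genes are shown apart from the 366 unnamed probes. RF11 was higher than F0 for 16 of the 17 and 79 of the 366 unnamed probes (21.6%), beside 15.0% of all probes tested. RF4 was higher than F0 for 12 of the 17 and 15 of the 366 (4.10%), beside 13.6% of all probes tested. Since the names come mostly from a list of genes that changed with feeding, the difference between named and unnamed was not tested. RF36 was higher than C0 for 6 of the 17 and 143 of the 366 (39.1%), beside 9.24% of all probes tested. F0 was lower than C0 for 16 of the 17 and 185 of the 366 (50.5%), beside 8.92% of all probes tested.

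**Figure D4:**
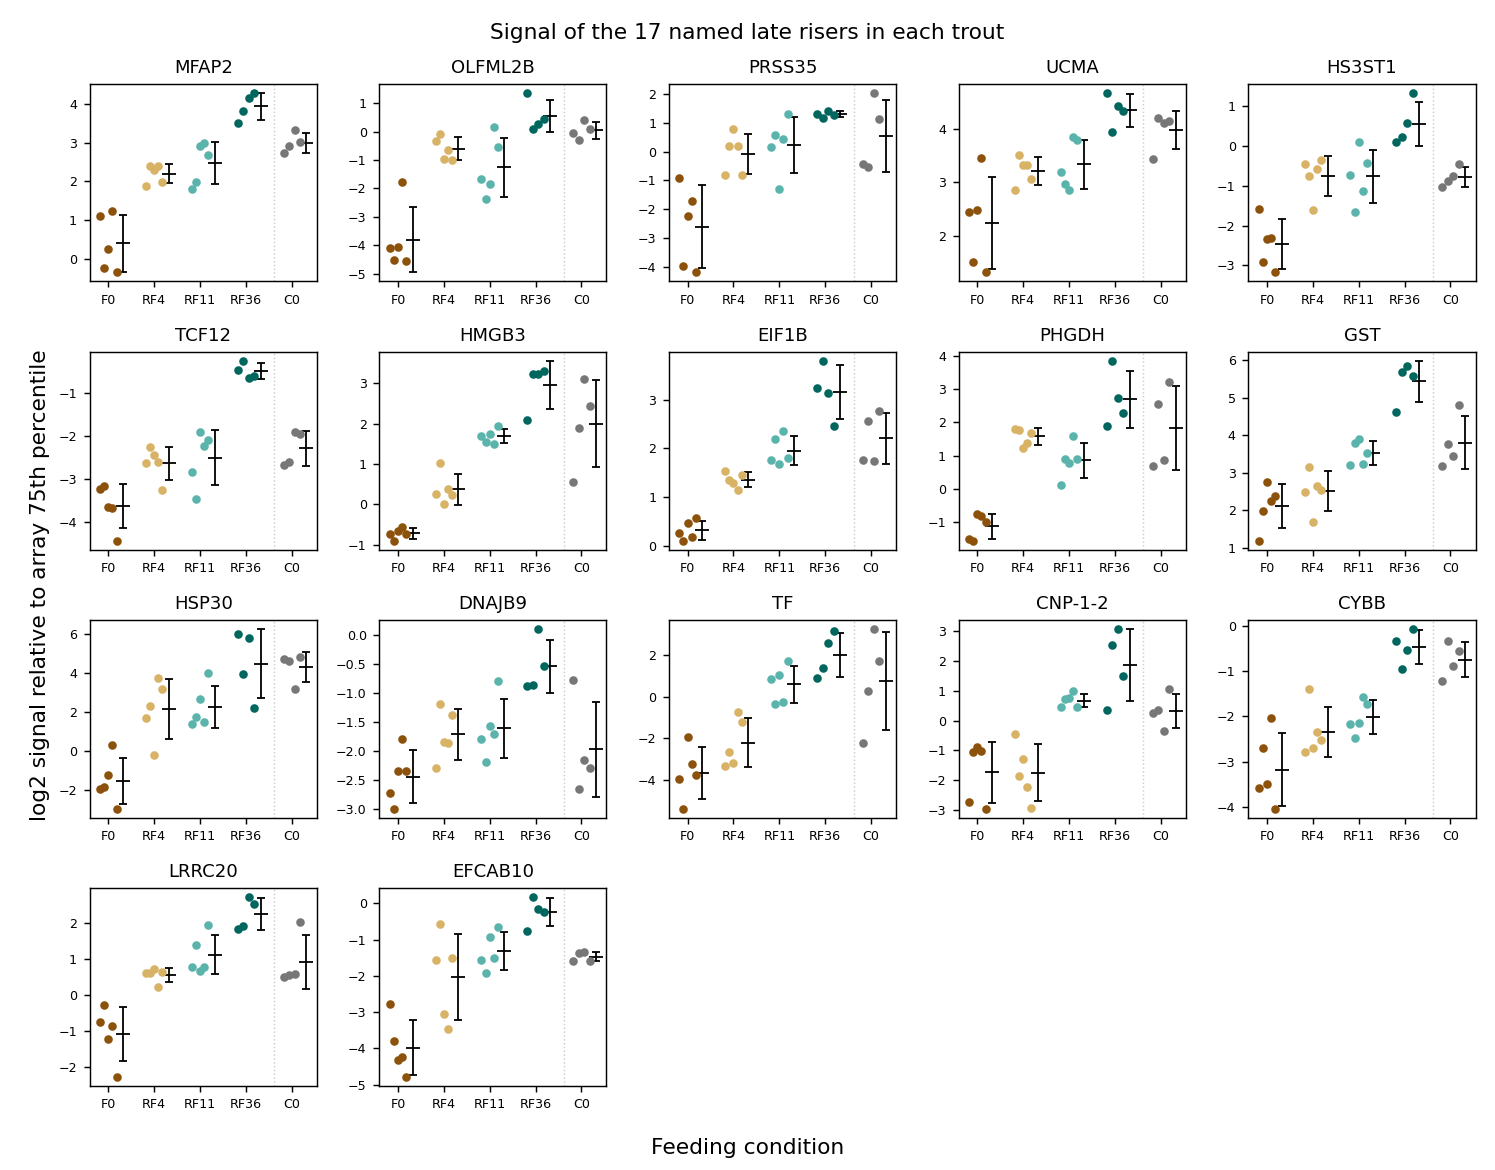
Log2 signal relative to the array 75th percentile (y axes, which differ between panels) of the 17 named late risers in each trout, by feeding condition. Points are single fish and the bar beside them is the mean with its SD. TCF12, MFAP2, HS3ST1 and EFCAB10 have all RF36 fish above all C0 fish.

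Genes of the extracellular matrix, secreted into it or acting on the sugar chains of its proteins formed the first group of named late risers. MFAP2 is a protein of the fibrillin microfibrils. Its brighter probe read 1.11, -0.25, 0.26, 1.23 and -0.35 in F0, 1.89, 2.39, 2.30, 2.41 and 1.98 in RF4, 1.80, 1.99, 2.92, 2.98 and 2.67 in RF11, 3.51, 3.83, 4.14 and 4.29 in RF36 and 2.73, 2.90, 3.32 and 3.01 in C0. Every refed fish was above every fasted fish, which the rule selected for in RF36 only. All RF36 fish were above all C0 fish. RF11 exceeded F0 by 2.08 (SE 0.29, adjusted p = 9.9e-06), while RF36 exceeded C0 by 0.95 (SE 0.33, adjusted p = 0.058). The second MFAP2 probe differed by 0.17 between RF36 and C0 (adjusted p = 0.823).

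HS3ST1 adds a sulphate group to heparan sulphate, the sugar chain of many cell surface and matrix proteins. Its signal was -1.59, -2.91, -2.33, -2.31 and -3.18 in F0, -0.46, -0.76, -1.61, -0.60 and -0.37 in RF4, -0.72, -1.66, 0.10, -1.13 and -0.42 in RF11, 0.08, 0.21, 0.56 and 1.33 in RF36 and -1.04, -0.88, -0.77 and -0.46 in C0. RF4 and RF11 had like means, with a difference of -0.01 (SE 0.33), and the RF36 fish did not overlap the C0 fish. HS3ST1 was 2.52-fold higher in RF36 than in C0 (log2 1.34, SE 0.37, adjusted p = 0.020), and the adjusted p was 0.059 without C0-1, 0.072 without RF36-4 and 0.051 when RF36 and C0 were fitted alone.

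OLFML2B encodes a secreted protein with an olfactomedin domain. It averaged -3.79 ± 1.16 in F0, -0.61 ± 0.40 in RF4, -1.25 ± 1.04 in RF11 (SD, n = 5 each), 0.55 ± 0.56 in RF36 and 0.04 ± 0.30 in C0 (SD, n = 4 each), and only 1 of the F0 arrays was well above background. RF4 exceeded F0 by 3.19 (SE 0.47, adjusted p = 2.1e-05), a size that rests on dim F0 signals and is not exact. PRSS35, a serine protease relative that lacks catalytic activity, averaged -2.60 ± 1.43 in F0, -0.09 ± 0.70 in RF4, 0.23 ± 0.96 in RF11 (SD, n = 5 each), 1.28 ± 0.10 in RF36 and 0.55 ± 1.25 in C0 (SD, n = 4 each). UCMA, a secreted protein first described in cartilage, averaged 2.24 ± 0.86, 3.22 ± 0.26 and 3.34 ± 0.46 in F0, RF4 and RF11 (SD, n = 5 each), 4.35 ± 0.31 in RF36 and 3.98 ± 0.35 in C0 (SD, n = 4 each), with a margin of 1.01. RF36 fish overlapped C0 fish for each of these 3 genes, and RF36 minus C0 did not pass the threshold (adjusted p = 0.568 for OLFML2B, 0.505 for PRSS35 and 0.520 for UCMA).

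Other matrix and adhesion genes can be set beside them. Of 36 such genes on a list drawn up without the collagens, 8 had a named probe that was tested, and MFAP2 was the only late riser among them. RF11 was higher than F0 for 7 of the 8 and lower for 1, CTGF, a matrix-associated growth factor. RF4 gave the same numbers, 7 higher and 1 lower than F0. Of all probes tested, 15.0% were higher and 12.0% lower in RF11, and 13.6% higher and 9.68% lower in RF4. Since names came mostly from the list of genes that changed with feeding, nothing is read from these counts. RF36 differed from C0 for 0 of the 8. SPARC, a collagen-binding matrix protein, came closest to the margin, with 0.84. Its means were 3.81 in F0, 4.57 in RF4, 5.02 in RF11, 5.85 in RF36 and 5.46 in C0.

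A pair of regulators of transcription and chromatin rose in different ways. TCF12 is a helix-loop-helix protein that pairs with the MyoD family of muscle regulators. It read -3.24, -3.15, -3.65, -3.66 and -4.42 in F0, -2.62, -2.26, -2.45, -2.60 and -3.25 in RF4, -2.83, -3.47, -1.92, -2.23 and -2.08 in RF11, -0.47, -0.26, -0.67 and -0.62 in RF36 and -2.68, -2.60, -1.91 and -1.96 in C0. All RF36 fish stood above every other fish, which the rule selected for except against C0. TCF12 was well above background on 0 of 5 F0 arrays, 2 of 5 RF4, 3 of 5 RF11, 4 of 4 RF36 and 2 of 4 C0 arrays. TCF12 was therefore at least 4.58-fold higher in RF36 than in F0, a bound that holds for the processed signal only. Against C0 it was 3.43-fold higher in RF36 (log2 1.78, SE 0.31, adjusted p = 0.00096), and the adjusted p was 0.0048 without C0-1. After normexp background correction the difference was 0.62 on the log2 scale (adjusted p = 0.0039). RF11 was at least 1.14-fold higher than F0, and F0 and RF11 fish overlapped. The measured log2 difference, which rests on dim F0 signals, was 1.12 (adjusted p = 0.0041). It was 0.40 after normexp background correction (adjusted p = 0.013).

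HMGB3 is a chromatin protein of the high mobility group. Its brighter probe read -0.74, -0.90, -0.66, -0.55 and -0.74 in F0, 0.25, 1.02, 0.02, 0.37 and 0.23 in RF4, 1.69, 1.55, 1.75, 1.497 and 1.94 in RF11, 2.08, 3.23, 3.24 and 3.31 in RF36 and 0.56, 1.89, 3.10 and 2.44 in C0. F0, RF4, RF11 and RF36 formed 4 steps with no overlap, whereas C0 spread across the range of RF4 to RF36. The rule selected for the RF36 step. RF11 exceeded RF4 by 1.31 (SE 0.33, adjusted p = 0.039) and F0 by 2.40 (SE 0.33, adjusted p = 6.2e-06). RF36 minus C0 was 0.97 (SE 0.36, adjusted p = 0.083). The second HMGB3 probe gave 1.25 (adjusted p = 0.063) for RF36 minus C0 and 3.42 (adjusted p = 6.9e-07) for RF11 minus F0. RF36-1 and C0-1 were the lowest of their groups on both probes.

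Genes of protein synthesis and metabolism included EIF1B and PHGDH. EIF1B is a close relative of the initiation factor that helps ribosomes choose the start codon. It read 0.28, 0.12, 0.48, 0.19 and 0.58 in F0, 1.55, 1.36, 1.29, 1.14 and 1.46 in RF4, 1.76, 2.19, 1.68, 2.36 and 1.80 in RF11, 3.23, 3.79, 3.13 and 2.45 in RF36 and 1.76, 2.55, 1.75 and 2.76 in C0. Each step of F0, RF4, RF11 and RF36 lay above the one before it with no overlap, and the rule selected for the RF36 step. EIF1B was 1.93-fold higher in RF36 than in C0 (log2 0.95, SE 0.26, adjusted p = 0.018), with RF36-4 below 2 of the C0 fish, and the adjusted p was 0.069 without C0-1, 0.083 without RF36-2, 0.071 under quantile normalization and 0.160 when RF36 and C0 were fitted alone. PHGDH, the first enzyme of serine synthesis from a glycolytic intermediate, averaged -1.11 ± 0.38 in F0, 1.58 ± 0.26 in RF4, 0.87 ± 0.52 in RF11 (SD, n = 5 each), 2.69 ± 0.85 in RF36 and 1.83 ± 1.25 in C0 (SD, n = 4 each). Its RF4 mean lay above its RF11 mean, but RF11 minus RF4 was -0.71 (SE 0.41) and did not pass the threshold (adjusted p = 0.487). RF4 exceeded F0 by 2.69 (SE 0.41, adjusted p = 3.3e-05).

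The stress and detoxification genes were GST, HSP30 and DNAJB9. Glutathione S-transferase (GST) couples glutathione to toxic compounds. It read 1.20, 1.99, 2.77, 2.26 and 2.40 in F0, 2.49, 3.16, 1.68, 2.66 and 2.54 in RF4, 3.22, 3.79, 3.91, 3.22 and 3.51 in RF11, 4.62, 5.67, 5.84 and 5.59 in RF36 and 3.19, 3.76, 3.45 and 4.80 in C0. The RF36 fish were above all fish of the other conditions except C0-4, which was above RF36-1. The rule selected for this against F0, RF4 and RF11. GST was 3.10-fold higher in RF36 than in C0 (log2 1.63, SE 0.36, adjusted p = 0.0054), and the adjusted p was 0.025 without C0-1 and 0.061 when RF36 and C0 were fitted alone. RF4 minus F0 was 0.39 (SE 0.33, adjusted p = 0.429) and RF11 minus F0 was 1.41 (SE 0.33, adjusted p = 0.0021).

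HSP30, a small heat shock protein of salmonids, read -1.95, -1.81, -1.23, 0.29 and -2.94 in F0, 1.70, 2.29, -0.19, 3.74 and 3.17 in RF4, 1.37, 1.76, 2.68, 1.47 and 3.97 in RF11, 6.00, 3.92, 5.76 and 2.20 in RF36 and 4.69, 4.58, 3.17 and 4.80 in C0. RF36 fish lay on both sides of the C0 fish, and RF36-2 and RF36-4 stood within the RF11 range. F0 was lower than C0 by 5.84 on the log2 scale (SE 0.80, adjusted p = 1.8e-05), and RF36 minus C0 was 0.16 (SE 0.84, adjusted p = 0.929). RF4 exceeded F0 by 3.67 (SE 0.75, adjusted p = 0.00084), and RF11 minus RF4 was 0.11 (SE 0.75, adjusted p = 0.986).

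DNAJB9, a co-chaperone of the endoplasmic reticulum, read -2.72, -2.99, -2.34, -1.78 and -2.34 in F0, -2.29, -1.18, -1.83, -1.85 and -1.38 in RF4, -1.78, -2.18, -1.55, -1.71 and -0.79 in RF11, -0.87, -0.85, 0.11 and -0.53 in RF36 and -0.77, -2.64, -2.15 and -2.28 in C0. C0-1 stood apart from the other C0 fish, within the RF36 range. DNAJB9 was 2.69-fold higher in RF36 than in C0 (log2 1.43, SE 0.36, adjusted p = 0.013), or by 1.82 on the log2 scale without C0-1 (adjusted p = 0.0019). The adjusted p was 0.052 without C0-2, 0.053 without RF36-3 and 0.092 when RF36 and C0 were fitted alone, and after normexp background correction the difference was 0.59 on the log2 scale (adjusted p = 0.067). It was the only named gene for which F0 minus C0 (-0.47, SE 0.34, adjusted p = 0.381) and RF11 minus F0 (0.83, SE 0.32, adjusted p = 0.061) both missed the threshold. On 2 of the 4 C0 arrays it was not well above background.

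Products known from blood or as hormones were serotransferrin, C-type natriuretic peptide and CYBB. Serotransferrin (TF) carries iron in plasma and is made chiefly by liver. It read -3.98, -5.39, -1.92, -3.24 and -3.79 in F0, -3.33, -2.66, -3.18, -0.72 and -1.21 in RF4, 0.87, -0.37, 1.05, -0.27 and 1.71 in RF11, 0.92, 1.38, 2.59 and 3.17 in RF36 and -2.25, 0.26, 3.27 and 1.73 in C0. No F0 array was well above background, so RF11 was at least 9.78-fold higher than F0 and RF36 at least 26.1-fold higher. The measured RF11 minus F0, which rests on dim F0 signals, was 4.26 on the log2 scale (adjusted p = 0.0003). After normexp background correction it was 2.37 (adjusted p = 0.0012). This is less than the bound for RF11, so the bounds hold for the processed signal only. C0 fish spanned a range of which only C0-1 lay below the RF11 fish, and RF36 minus C0 was 1.26 (SE 0.90, adjusted p = 0.384), or 0.26 without C0-1. No named probe of the erythrocyte or leukocyte markers on the fixed lists was tested, and the part of blood in this signal was not tested.

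CNP-1-2, a precursor of C-type natriuretic peptide, read -2.73, -1.06, -0.88, -1.02 and -2.97 in F0, -0.44, -1.87, -1.28, -2.25 and -2.95 in RF4, 0.45, 0.73, 0.75, 0.99 and 0.47 in RF11, 0.37, 2.56, 3.09 and 1.497 in RF36 and 0.27, 0.36, -0.35 and 1.05 in C0. All RF11 fish stood above all RF4 fish, and RF4 overlapped F0. RF11 exceeded RF4 by 2.43 (SE 0.50, adjusted p = 0.014), and RF4 minus F0 was -0.03 (SE 0.50, adjusted p = 0.9804). RF36 minus C0 was 1.55 (SE 0.56, adjusted p = 0.073), with RF36-1 inside the C0 range. CYBB, the catalytic subunit of the oxidase of phagocytes, averaged -3.17 ± 0.80 in F0, -2.35 ± 0.56 in RF4, -2.02 ± 0.37 in RF11 (SD, n = 5 each), -0.48 ± 0.37 in RF36 and -0.75 ± 0.39 in C0 (SD, n = 4 each). RF36 minus C0 was 0.28 (SE 0.36, adjusted p = 0.664), and RF11 exceeded F0 by 1.16 (SE 0.32, adjusted p = 0.0094), or by 0.37 after normexp background correction (adjusted p = 0.086). None of the 15 genes on a list of immune defence genes had a named probe to set beside it.

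LRRC20, a leucine-rich repeat protein, read -0.75, -0.29, -1.23, -0.85 and -2.28 in F0, 0.61, 0.62, 0.72, 0.22 and 0.64 in RF4, 0.78, 1.38, 0.67, 0.79 and 1.95 in RF11, 1.84, 1.92, 2.72 and 2.54 in RF36 and 0.49, 0.56, 0.57 and 2.03 in C0. C0-4 was the only C0 fish within the RF36 range. LRRC20 was 2.53-fold higher in RF36 than in C0 (log2 1.34, SE 0.38, adjusted p = 0.023), and the adjusted p was 0.078 without C0-1, 0.069 without C0-2, 0.077 without RF36-3, 0.059 without RF36-4, 0.052 with no filter on dim probes and 0.092 when RF36 and C0 were fitted alone. EFCAB10, an EF-hand protein, averaged -3.98 ± 0.76 in F0, -2.03 ± 1.19 in RF4, -1.32 ± 0.52 in RF11 (SD, n = 5 each), -0.25 ± 0.38 in RF36 and -1.48 ± 0.13 in C0 (SD, n = 4 each). All its RF36 fish were above all C0 fish, yet RF36 minus C0, 1.23 (SE 0.48), did not pass the threshold (adjusted p = 0.094).

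Genes on the other fixed lists were not among the late risers. Named probes were tested for 7 of 26 cell cycle genes, 8 of 13 proteolysis genes, 4 of 21 myogenic and growth genes, 2 of 14 genes of energy metabolism and 1 each of the calcium handling, lipid, respiration and translation lists, and 0 of these were late risers. RF11 was higher than F0 for all 7 cell cycle genes, and RF36 differed from C0 for 0 of them. Among the proteolysis genes, RF11 was lower than F0 for 6 of 8, and RF36 was lower than C0 for 2. The names of these genes came mostly from the list of genes that changed with feeding, and otherwise from the scanner files. Most were thus picked for changing, so nothing is read from these counts.

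Some late risers had near-identical profiles. The correlation between any 2 late risers over the 23 arrays had a median of 0.61, which the common shape asked for by the rule would raise. At a correlation of at least 0.98, 112 of the 385 were linked to another. At 0.99 or more, 45 were linked and the largest set held 5 probes. Sets were chained from links of at least 0.98, so probes of a set need not all reach that value with each other. The largest sets so formed held 34, 11, 8, 7 and 7 probes. They were formed after the values had been seen and are described without a test.

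The set of 34 probes, all unnamed, averaged 2.13 ± 0.27 in F0, 2.33 ± 0.43 in RF4, 2.94 ± 0.37 in RF11 (SD, n = 5 each), 4.54 ± 0.33 in RF36 and 3.28 ± 1.06 in C0 (SD, n = 4 each). Its C0 fish spread between 2.08 for C0-1 and 4.51 for C0-4, that is, across the ranges of F0 to RF36. The named probes nearest to its mean profile were PRDX1 (r = 0.876) and PRDX2 (r = 0.862), both peroxiredoxins that remove hydrogen peroxide, and GST (r = 0.861). These correlations describe 23 arrays that share the feeding conditions.

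The set of 11 unnamed probes ran close to the probes of fast myosin light chain 3 (r = 0.921) and fast myosin (r = 0.903). It averaged 3.95 ± 0.43 in F0, 4.05 ± 0.39 in RF4, 4.18 ± 0.42 in RF11 (SD, n = 5 each), 5.23 ± 0.36 in RF36 and 5.01 ± 0.48 in C0 (SD, n = 4 each), so that RF36 and C0 overlapped and differed by 0.22. The set of 8 held GST, whose own probe followed the mean of the set at r = 0.998. The GST probe is part of that mean and was linked by correlation, so this value only describes the choice. The set of 8 averaged 2.51 ± 0.48 in F0, 2.81 ± 0.46 in RF4, 3.90 ± 0.29 in RF11 (SD, n = 5 each), 5.56 ± 0.51 in RF36 and 4.07 ± 0.65 in C0 (SD, n = 4 each), and differed by 1.49 between RF36 and C0.

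Of the sets of 7, one averaged 2.13 ± 0.86 in F0, 2.08 ± 1.03 in RF4, 2.16 ± 0.65 in RF11 (SD, n = 5 each), 3.57 ± 0.48 in RF36 and 2.96 ± 1.28 in C0 (SD, n = 4 each). Its values ranged over more than 1 unit within every group, its lowest C0 fish stood at 1.05, and its nearest named probe was fast myosin (r = 0.834). The other set of 7 averaged 6.38 ± 0.93 in F0, 7.27 ± 0.63 in RF4, 7.55 ± 0.20 in RF11 (SD, n = 5 each), 8.66 ± 0.25 in RF36 and 8.05 ± 0.65 in C0 (SD, n = 4 each), with triosephosphate isomerase, a glycolytic enzyme, as its nearest named probe (r = 0.891). What the unnamed probes of these sets encode was not read here.

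**Figure D5:**
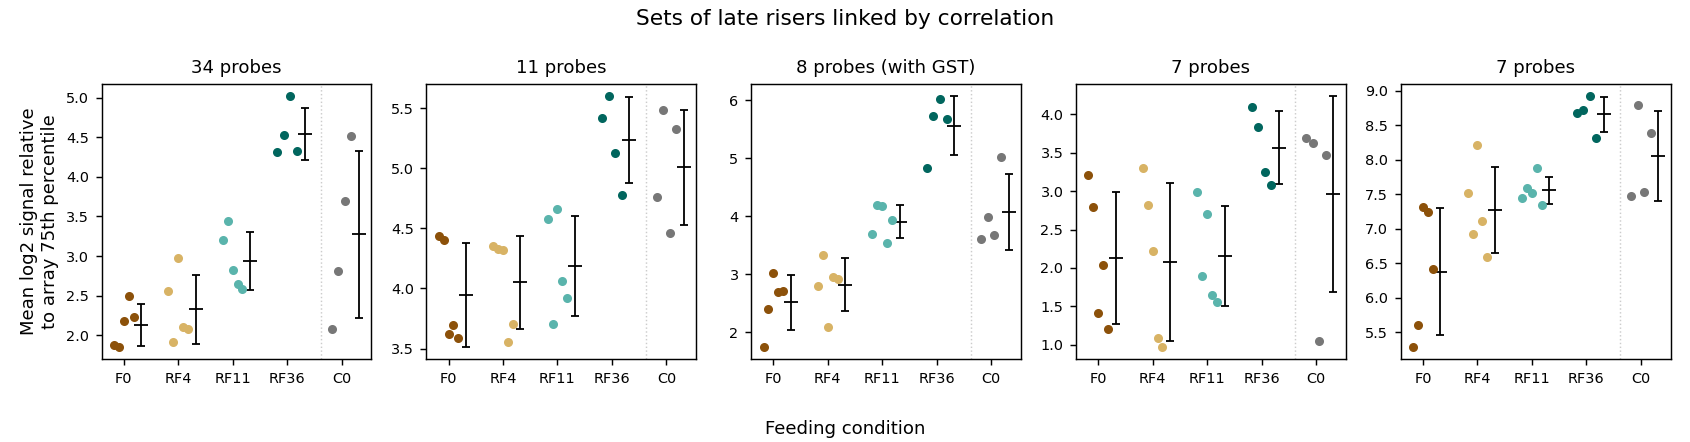
Mean log2 signal relative to the array 75th percentile (y axes, which differ between panels) of the 5 largest sets of late risers linked at a correlation of at least 0.98, in each trout. Points are single fish and the bar beside them is the mean with its SD. In the set of 34 probes the C0 fish spread between 2.08 and 4.51, and in the set with GST the RF36 mean is 1.49 above the C0 mean.

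The 19 late risers whose C0 mean was above the RF36 mean were all unnamed. The largest difference was -2.02 (RF36 minus C0), and 0 of the 19 passed the threshold, also at an unadjusted p under 0.05. Their C0 mean was thus the highest of the 5 conditions, and for the other 366 it was RF36.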

How the data were processed

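Muscle RNA of each of 23 trout was hybridised, with Cy3, to an Agilent array of its own (3 slides, 1 scan day). Arrays were read with Agilent Feature Extraction 10.7.3.1 (per the submitters' processing notes). The deposited intensity used here is that software's processed signal of each spot, which the authors deposited before scaling between arrays. The deposited table of the authors' normalised values is on the log2 scale with 1 factor per array and served only as an alternative, as did the deposited spot and local background intensities (normexp, offset 50). Whether a spot was well above background was read from the deposited flags.

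Control spots and 145 outlier spots were left out, and 0 spots were saturated. Signals were taken as log2, averaged over spots of a probe, and expressed against each array's 75th percentile. A probe was tested if no array was missing and at least 4 arrays of some group were well above background, which held for 34200 probes. limma (version 3.58.1, R version 4.3.3) fitted 1 mean per condition over all 5 groups (lmFit and eBayes, two-sided, Benjamini-Hochberg adjustment, threshold 0.05). Other steps used Python 3.11.15 with pandas 2.3.3, numpy 2.4.6, matplotlib 3.10.9 and scipy 1.17.1. The model was tested on simulated data. The number of fish limits the precision.

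The members and gene lists were chosen with earlier results of these data known. All named members are described, and where a gene had several probes the one of highest average signal was used. Names were found for 1117 of 60195 probes. The closing section gives the alternatives, of which the brightness covariate was added after the data were seen.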

Additional observations from a re-analysis of the deposited data

Results flagged for a closer look

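In 90 sets of values (17 named genes and the mean of the late risers, each in 5 feeding conditions), 6 held a fish whose gap to the nearest other fish was large against the whole range of its group (Dixon's ratio above the 95% critical value). Chance flags about 1 in 20 such sets. HSP30 was 3.17 in C0-3, with the nearest C0 fish at 4.58. HMGB3 was 2.08 in RF36-1, with the nearest RF36 fish at 3.23. OLFML2B was -1.76 in F0-5, with the nearest F0 fish at -4.06. LRRC20 was 0.22 in RF4-5, with the nearest RF4 fish at 0.61, and 2.03 in C0-4, with the nearest C0 fish at 0.57. UCMA was 3.45 in C0-1, with the nearest C0 fish at 4.11. These 6 sets belong to 5 genes, and the 5 sets of the mean over all late risers held none.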

How the results depend on the processing

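The number of late risers (385) was 191 after normexp background correction, 101 at a margin of 1.5 and 752 at 0.8, and ranged between 352 and 520 as single arrays were left out. Higher in RF36 than C0 (149) was 26 when RF36 and C0 were fitted alone, 74 at an adjusted p under 0.01 and 93 to 191 with single arrays left out, and lower in RF36 than C0 (0) was 0 to 4. Higher in RF4 than F0 (29) was 17 at 0.01. Lower in RF4 than F0 (1) was 0 under median scaling, the authors' values and 0.01, 3 under quantile normalization and in a model of those groups, and 0 to 3 with single arrays left out. Higher in RF11 than F0 (97) was 50 at 0.01 and 71 to 117 with single arrays left out, and lower in RF11 than F0 (0) was 1 with the sample number as a replicate block and 0 to 2 with single arrays left out. Higher in RF11 than RF4 (8) was 3 under median scaling, the authors' values and the replicate block, 15 under normexp, 2 with no filter on dim probes, 17 over probes bright on every array, 16 with slide as a block, 18 in a model of those groups, 1 at 0.01, 20 with brightness as a covariate and 2 to 18 with single arrays left out. Higher in F0 than C0 (0) was 1 under quantile normalization and with brightness, and 0 to 1 with single arrays left out. Lower in F0 than C0 (203) was 112 under median scaling and the authors' values, 117 in a model of those groups, 127 at 0.01 and 150 to 224 with single arrays left out. Median scaling subtracts another constant from each array, and a model of 2 groups has fewer fish. The causes of the changes were not tested.

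For the named genes, 4 values reversed, all of HSP30 in RF36 minus C0, at -0.15 under quantile normalization, -0.35 without RF36-1, -0.27 without RF36-3 and -0.23 without C0-3, none past the threshold, and its value with single arrays left out ran between -0.35 and 0.91. A call on a named gene was lost in 28 instances, 10 with single arrays left out (all RF36 over C0, in HS3ST1, EIF1B, LRRC20 and DNAJB9) and 18 under other settings, and values passed the threshold newly in 30. When RF36 and C0 were fitted alone, RF36 over C0 missed the threshold in GST, HS3ST1, EIF1B, LRRC20 and DNAJB9 (adjusted p = 0.061, 0.051, 0.160, 0.092 and 0.092). Of 38 called values of named genes, 18 moved by over 1.5 times under normexp, all towards 0, and 0 did under any other setting. Fish with the same sample number deviated together no more than weakly (33 pairs, r between -0.32 and 0.35, median 0.11, against -0.01 for other pairs), so the numbers do not pair the fish. With 4 or 5 fish per group, and with dim signals in F0, small differences could not be seen.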
